A study of Homo sapiens with 6 samples.

Results

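TRAF genes and the noncanonical arm of NF-kB signaling were examined in A549 cells that overexpress IL17D. The 10 genes were MAP3K14, CHUK, NFKB2, RELB, BIRC2, BIRC3, TRAF2, TRAF3, TRAF4 and TRAF6. They were taken by name from the 58735 genes of the count table. All 10 passed the filter on low counts, as did 15754 genes in all. The set was chosen by pathway with the fold changes and p-values of the same comparison of IL17D-overexpressing with control cells in view, the rise of MAP3K14 among them, so every value of that comparison given for the 10 genes is a description and not independent evidence. A549 cells, a line from a human lung carcinoma, were transduced either with a lentiviral vector that expresses the IL17D open reading frame from the human PGK promoter, or with the empty vector (control), and 3 libraries of total RNA were sequenced from each. Both groups carried the vector and were grown in RPMI1640 medium with serum. The sources used here do not say whether the 3 libraries of a group came from separate transductions, cultures or clones, so p-values measure the spread between these libraries, which may be technical. The comparison addresses which transcripts of this set differ when a lung cancer cell makes IL-17D.

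NF-kB is a family of transcription factors that is activated by a fast canonical and a slow noncanonical route. In the noncanonical route, the kinase NIK, encoded by MAP3K14, is bound by TRAF3 in resting cells and handed through TRAF2 to the ubiquitin ligases cIAP1 and cIAP2, which mark it for destruction. Receptors such as the lymphotoxin beta receptor, CD40 and FN14 draw these TRAF proteins away. NIK then accumulates and activates the kinase IKK alpha (CHUK), the precursor p100 (NFKB2) is cut to p52, and p52 enters the nucleus with RELB. NIK is thus held in check mainly at the protein level, which RNA-seq does not measure. TRAF4 and TRAF6 were included as members of the TRAF family and have no step in this account of the route.

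The libraries held 14319398 to 16521021 counts on genes. IL17D itself separated the groups, with 1.24 to 2.11 CPM (counts scaled to a common library size by TMM) in control cells and 1876 to 1956 CPM in IL17D-overexpressing cells. As markers of the cell line, KRT8 and KRT18 had means of 7648 and 3591 CPM in control cells, whereas EPCAM had 1.05 CPM and KRT19 0.370 CPM. The 5 epithelial markers together had 11119 to 11539 CPM in control and 10802 to 11040 CPM in IL17D-overexpressing libraries. CDH1, which encodes E-cadherin, was the 1 epithelial marker past the threshold and fell from 43.4 to 35.7 CPM (edgeR adjusted p = 0.031). The part of these markers in the results below was not tested. Of 7 leukocyte markers, PTPRC, CD3E and MS4A1 had no count in any library, which allows up to 0.182 to 0.210 CPM in a library for counting error alone, and the list summed to 0.746 to 1.11 CPM in control and 0.730 to 1.34 CPM in IL17D-overexpressing libraries. The 4 fibroblast markers summed to 22.4 to 24.6 CPM and 19.3 to 23.3 CPM, nearly all of it COL1A1, and the 3 endothelial markers to 0.346 to 0.435 CPM and 0.0701 to 0.608 CPM.

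Transcripts of the kinase NIK, of the p52 precursor, of the ligase cIAP2 and of the adaptor TRAF4 were modestly more abundant in IL17D-overexpressing cells. MAP3K14, NFKB2, BIRC3 and TRAF4 rose by 15.7% to 18.2% in mean CPM, and each passed a threshold of 0.05 on the p-value of edgeR's quasi-likelihood test, adjusted over all tested genes. These are 4 of the 10 genes, all 4 higher, where 0.673% of all tested genes were called higher and 0.908% lower. Without IL17D replicate 3 the count was 2, MAP3K14 and NFKB2. Of the others, RELB and BIRC2 had higher means without passing the threshold, and the means of CHUK, TRAF2, TRAF3 and TRAF6 differed by 3.72%, 6.37%, 3.16% and -3.85%. In 5 of the 10 genes, namely MAP3K14, NFKB2, BIRC2, BIRC3 and TRAF4, all 3 IL17D-overexpressing libraries lay above all 3 control libraries, as was the case for 7.48% of all tested genes, and in 0 of the 10 all 3 lay below, as for 8.31% of all tested genes. Of the 10 log2 fold changes 9 were above 0 and 1 below, with a median of 0.19. Over all tested genes the median was -0.00044, with 49.9% above 0, the middle 50% of genes between -0.087 and 0.081 and the 95th percentile at 0.35. In bulk RNA, more RNA per cell and more cells that express a gene cannot be told apart.

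**Figure D1:**
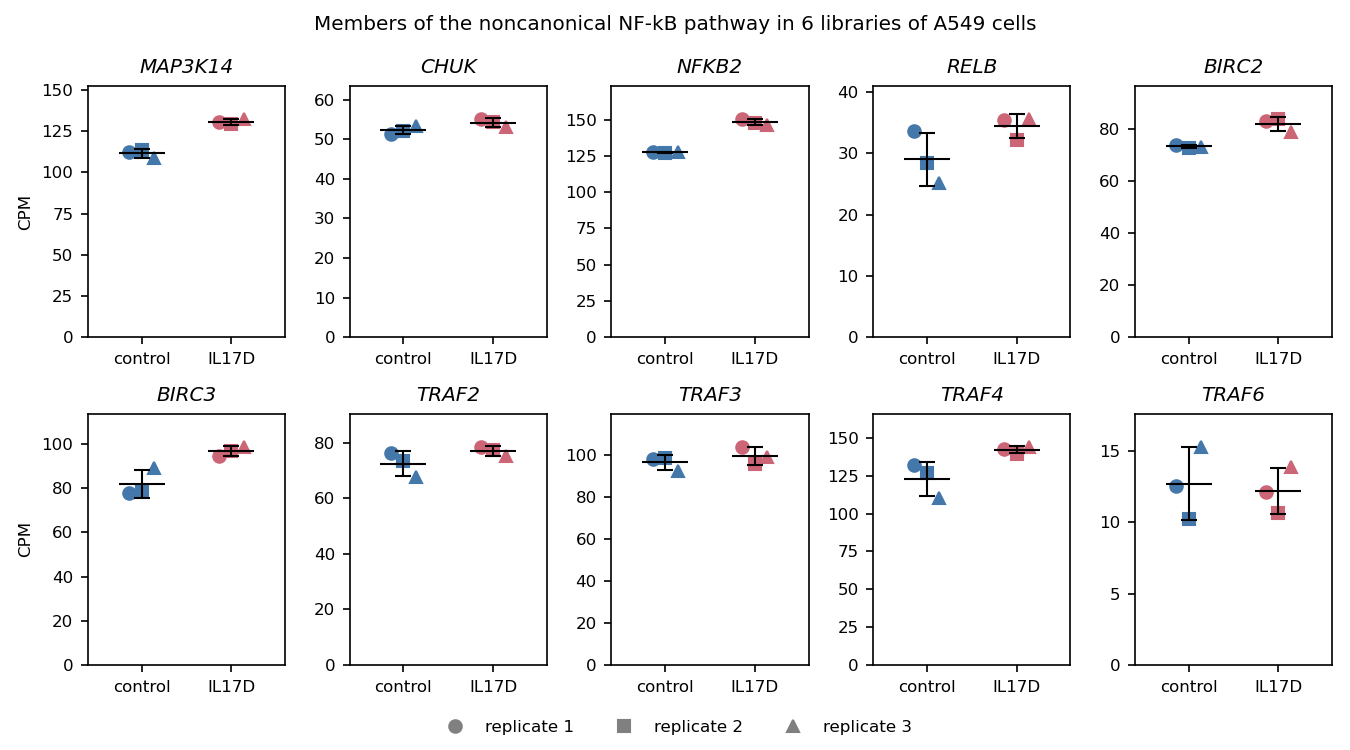
CPM (vertical axis, from 0) of each of the 10 genes in the 3 control and 3 IL17D-overexpressing libraries. Symbols mark the replicate number, and bars give the mean and SD of 3 libraries. In MAP3K14, NFKB2, BIRC2, BIRC3 and TRAF4 the IL17D-overexpressing libraries lie above the control libraries, and in the other 5 genes the groups overlap.

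MAP3K14 (ENSG00000006062, chromosome 17 of GRCh38, 45263119 to 45317145, minus strand) encodes NIK, the kinase on which the noncanonical route depends. It had 112.5, 113.7 and 108.5 CPM in control replicates 1, 2 and 3, and 130.3, 129.2 and 132.6 CPM in the IL17D-overexpressing replicates. The groups did not overlap, and the lowest IL17D-overexpressing library lay above the highest control library by more than the range within either group. The means were 111.5 ± 2.70 CPM and 130.7 ± 1.74 CPM (SD, n = 3 each), a log2 fold change of 0.23 ± 0.043 (SE) with a 95% interval of 0.14 to 0.32 and an edgeR adjusted p of 0.0016. An antisense gene, MAP3K14-AS1, shares 713 of the 5784 exonic bases of MAP3K14 (12.3%) on the opposite strand, and the sources used here do not say whether reads were assigned by strand. MAP3K14-AS1 had 10.4 to 12.4 CPM in control and 12.8 to 14.4 CPM in IL17D-overexpressing libraries, with a log2 fold change of 0.22 (edgeR adjusted p = 0.47). With the counts of both genes summed, the log2 fold change was 0.23 (edgeR adjusted p = 0.0010).

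The 5 tested genes with the pattern most like that of MAP3K14 were AKAP5, FGFR1, TGM2, MPP6 and MYC. Likeness was measured as the root-mean-square difference in centered log2 CPM over the 6 libraries, which was 0.010 for AKAP5, 0.018 for FGFR1, 0.021 for TGM2, 0.023 for MPP6 and 0.024 for MYC. AKAP5 is a low gene, with 6.57 ± 0.217 CPM in control and 7.66 ± 0.119 CPM in IL17D-overexpressing cells (SD, n = 3 each), and it did not pass the threshold (edgeR adjusted p = 0.62). Among the other 9 genes of the set, NFKB2 was closest, with a difference of 0.030 and place 12 of all tested genes. BIRC2 and TRAF4 followed at places 121 and 164. The measure includes the difference between the groups, so genes with a like fold change rank high. Whether these genes are regulated together was not tested.

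CHUK (ENSG00000213341, chromosome 10, 100188298 to 100229619, minus strand) encodes IKK alpha, the kinase that NIK activates. Its values were 51.4, 52.0 and 53.5 CPM in control and 55.2, 54.4 and 53.1 CPM in IL17D-overexpressing replicates 1 to 3. The groups overlapped, because the lowest IL17D-overexpressing library was below the highest control library. The log2 fold change of 0.053 had a 95% interval of -0.064 to 0.17 (edgeR adjusted p = 0.81). The fold change of MAP3K14 lay outside this interval, but the interval of MAP3K14, 0.14 to 0.32, overlapped it. Differences between genes were not tested.

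NFKB2 (ENSG00000077150, chromosome 10, 102394110 to 102402529, plus strand) encodes p100, the precursor of p52 and itself an inhibitor that holds RELB in the cytoplasm. It had 127.8, 127.1 and 127.6 CPM in control and 150.5, 147.8 and 146.2 CPM in IL17D-overexpressing replicates 1 to 3. The control libraries were nearly equal, and every IL17D-overexpressing library was higher. The means were 127.5 ± 0.383 CPM and 148.2 ± 2.18 CPM (SD, n = 3 each), which is 0.22 ± 0.041 (SE) on the log2 scale, with a 95% interval of 0.13 to 0.30 and an edgeR adjusted p of 0.0016. MAP3K14 and NFKB2 stood next to each other at places 67 and 68 when all tested genes were ordered by p.

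RELB (ENSG00000104856, chromosome 19, 45001430 to 45038198, plus strand) encodes the partner of p52. Its values were 33.6, 28.4 and 25.1 CPM in control and 35.5, 32.2 and 35.7 CPM in IL17D-overexpressing replicates 1 to 3. Control replicate 1 lay within the range of the IL17D-overexpressing libraries and the other two lay below it. The log2 fold change of 0.25 was the largest of the 10 genes, with an SE of 0.085 and an edgeR adjusted p of 0.18. Without control replicate 1 it was 0.37 with an adjusted p of 0.024, and without control replicate 3 it was 0.15 with an adjusted p of 0.51, so the value for RELB rests on which control library is used.

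**Figure D2:**
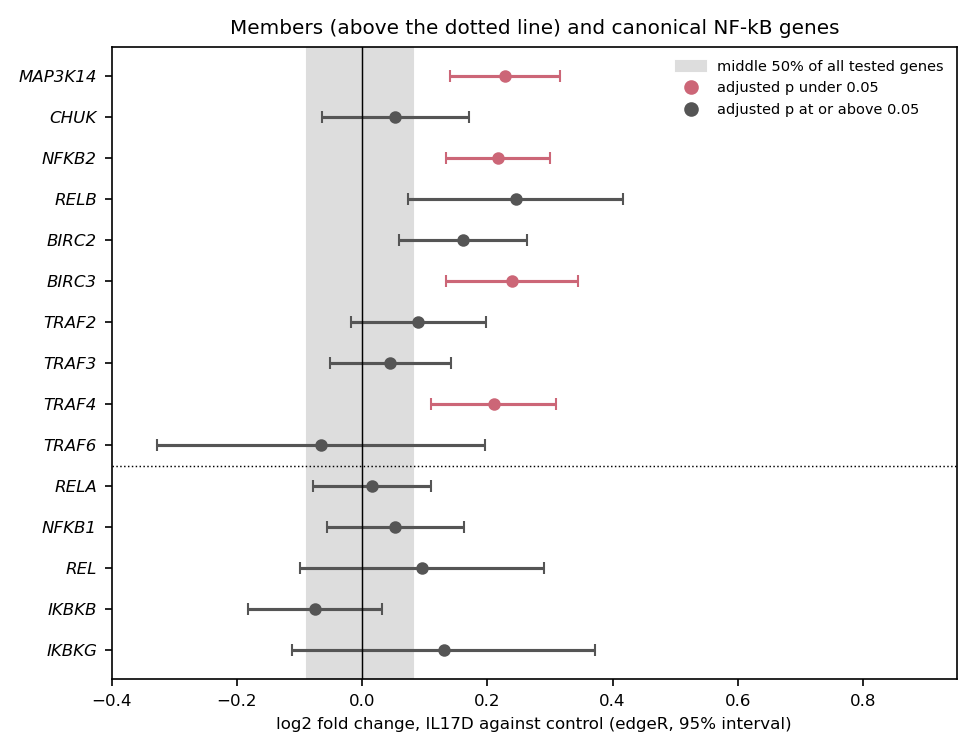
Log2 fold change of IL17D-overexpressing against control cells from edgeR (horizontal axis) with its 95% interval for the 10 genes, above the dotted line, and for 5 genes of the canonical route, below it. Red marks genes past the threshold of 0.05, which are MAP3K14, NFKB2, BIRC3 and TRAF4, and the gray band, from -0.087 to 0.081, holds the middle 50% of all tested genes.

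BIRC2 and BIRC3 encode cIAP1 and cIAP2, the ubiquitin ligases that act on NIK, and lie next to each other on chromosome 11. BIRC3 (ENSG00000023445, 102317450 to 102339403, plus strand), which is also a known target gene of NF-kB, had 77.9, 78.7 and 89.2 CPM in control and 94.7, 96.9 and 99.0 CPM in IL17D-overexpressing replicates 1 to 3. Control replicate 3 was the highest of its group and still lay below every IL17D-overexpressing library. The means were 81.9 ± 6.33 CPM and 96.8 ± 2.12 CPM (SD, n = 3 each), a log2 fold change of 0.24 ± 0.052 (SE) with a 95% interval of 0.13 to 0.35 and an edgeR adjusted p of 0.0069. The adjusted p rose to 0.071 without control replicate 1, 0.065 without control replicate 2 and 0.067 without IL17D replicate 3, and fell to 0.00018 without control replicate 3.

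BIRC2 (ENSG00000110330, 102347211 to 102378670, plus strand) had 73.8, 72.6 and 72.9 CPM in control and 83.0, 83.7 and 78.5 CPM in IL17D-overexpressing replicates 1 to 3. The groups did not overlap, and the log2 fold change was 0.16 ± 0.050 (SE) with a 95% interval of 0.060 to 0.26, but BIRC2 did not pass the threshold (edgeR adjusted p = 0.11). The 2 genes have 37 stretches of 31 bases in common, 0.778% of the stretches in BIRC2. Summed as 1 feature, they had a log2 fold change of 0.20 (edgeR adjusted p = 0.0026).

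Promoters of members are shown for what they hold of the kappa B consensus, the sequence to which NF-kB dimers bind. In RefSeq's promoter sequences on GRCh38.p14, 9 of the 10 genes were matched by symbol, all but RELB. The first entry of each gene was used, and the 250 bases before its start were searched on both strands. These starts can differ from the gene coordinates given here, as for BIRC3 and TRAF2, and other promoters of a gene were not searched. The consensus was found in 2 of the 9, BIRC3 and TRAF3, and in 9.96% of 35116 promoters of this length. Among tested genes with an entry it was found in 11.8% of 10609. BIRC3 is shown as a gene that rose and has 2 matches, TRAF3 as a gene with 1 match that was not called, and NFKB2 as a gene that rose and has no match in this window. Sequences run 5′ to 3′ on the strand of the gene, and capitals mark matches to the consensus on either strand.
BIRC3 promoter (chr11:102317234-102317483, plus strand): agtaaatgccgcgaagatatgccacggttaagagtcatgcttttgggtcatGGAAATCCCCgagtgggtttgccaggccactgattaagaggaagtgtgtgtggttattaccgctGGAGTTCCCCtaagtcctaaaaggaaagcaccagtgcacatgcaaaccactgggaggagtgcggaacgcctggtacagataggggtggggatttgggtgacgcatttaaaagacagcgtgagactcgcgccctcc
TRAF3 promoter (chr14:102777199-102777448, plus strand): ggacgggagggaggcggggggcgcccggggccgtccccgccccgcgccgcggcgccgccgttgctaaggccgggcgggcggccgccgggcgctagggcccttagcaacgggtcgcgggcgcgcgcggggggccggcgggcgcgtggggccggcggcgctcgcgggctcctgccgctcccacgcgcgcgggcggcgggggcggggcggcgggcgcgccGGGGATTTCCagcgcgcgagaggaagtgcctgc
NFKB2 promoter (chr10:102393860-102394109, plus strand): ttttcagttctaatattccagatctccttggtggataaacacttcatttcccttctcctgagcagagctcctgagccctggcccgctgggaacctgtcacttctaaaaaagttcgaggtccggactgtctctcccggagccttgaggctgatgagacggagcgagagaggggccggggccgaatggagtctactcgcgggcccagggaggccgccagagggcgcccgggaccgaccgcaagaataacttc
Both matches of BIRC3, GGAAATCCCC at 199 to 190 bases and GGAGTTCCCC at 135 to 126 bases before the start, are on the strand opposite to the gene. The match of TRAF3, GGGGATTTCC at 33 to 24 bases before the start, is on the strand of the gene. The motif TGANTCA, to which AP-1 factors bind, was searched in the same way and was found in 0 of the 9 promoters in 6.57% of all promoters and in 3.94% of those of tested genes. A match shows only that the letters are present, and no match only that they are absent from this window.

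The TRAF proteins are adaptors that link receptors to these kinases and ligases, and of the 4 TRAF genes examined 1 rose. TRAF4 (ENSG00000076604, chromosome 17, 28743984 to 28750958, plus strand) encodes an adaptor that can also bind ACT1, the adaptor of the IL-17 receptors. It had 131.8, 126.5 and 110.4 CPM in control and 142.6, 139.5 and 144.3 CPM in IL17D-overexpressing replicates 1 to 3. The groups did not overlap, and control replicate 3 was the lowest of the 6 libraries. The means were 122.9 ± 11.1 CPM and 142.1 ± 2.42 CPM (SD, n = 3 each), a log2 fold change of 0.21 ± 0.049 (SE) with a 95% interval of 0.11 to 0.31 and an edgeR adjusted p of 0.014. Without control replicate 3 the log2 fold change was 0.14 and the adjusted p 0.13, and the adjusted p was also above the threshold without IL17D replicate 1 (0.068) and without IL17D replicate 3 (0.11). Of the 31-base stretches of TRAF4, 16.4% occur in other genes, most of them in the antisense gene AC010761.4, which had only 2 to 8 counts in a library.

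TRAF3 (ENSG00000131323, chromosome 14, 102777476 to 102911500, plus strand) encodes the adaptor that binds NIK directly. Its values were 98.5, 98.8 and 92.7 CPM in control and 104.3, 95.9 and 99.0 CPM in IL17D-overexpressing replicates 1 to 3, and the groups overlapped. The log2 fold change was 0.045 with a 95% interval of -0.052 to 0.14 (edgeR adjusted p = 0.79). TRAF2 (ENSG00000127191, chromosome 9, 136881912 to 136926607, plus strand) encodes the adaptor between TRAF3 and the cIAP ligases. It had 76.4, 73.3 and 67.7 CPM in control and 78.6, 77.5 and 75.1 CPM in IL17D-overexpressing replicates 1 to 3. Only IL17D replicate 3 lay within the control range, and the log2 fold change of 0.090 had a 95% interval of -0.018 to 0.20 (edgeR adjusted p = 0.56). The interval of TRAF3 leaves out the fold change of MAP3K14, and that of TRAF2 leaves it out as well. Both overlap the interval of MAP3K14, 0.141 to 0.316, that of TRAF3 narrowly, and differences between genes were not tested.

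TRAF6 (ENSG00000175104, chromosome 11, 36487027 to 36510272, minus strand) encodes the adaptor and ubiquitin ligase through which ACT1 passes IL-17 receptor signals to the canonical route. With 12.6, 10.2 and 15.3 CPM in control and 12.1, 10.6 and 13.9 CPM in IL17D-overexpressing replicates 1 to 3, it was the least abundant of the 10 and the 1 with a lower mean. The IL17D-overexpressing values all lay within the control range. The log2 fold change was -0.066 with a 95% interval of -0.33 to 0.20 (edgeR adjusted p = 0.91), which leaves room for a fall as large as the rise of MAP3K14. Of its 31-base stretches, 10.4% occur in other genes, mainly in the pseudogene TRAF6P1. The share was 10.9% for MAP3K14 and 16.4% for TRAF4. How far such stretches alter the counts of these genes was not tested.

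**Figure D3:**
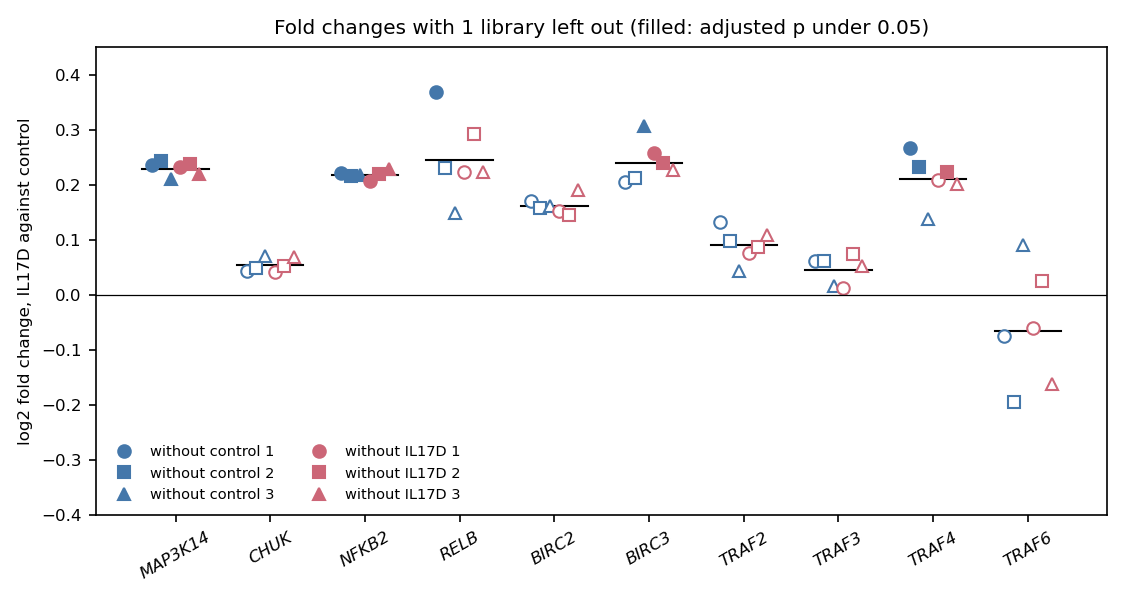
Log2 fold change (vertical axis) of each of the 10 genes with 1 of the 6 libraries left out. Horizontal lines give the value with all libraries, and filled symbols mark genes past the threshold of 0.05. MAP3K14 and NFKB2 stayed under the threshold in all 6 cases, whereas BIRC3 and TRAF4 each lost it in 3, and TRAF6 lay on both sides of 0.

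Levels were compared between genes per length, as reads divided by the authors' gene length and scaled to a common library size (RPKM). In control cells NFKB2 was the most abundant at 28.4 ± 0.0853 RPKM (SD, n = 3), followed by TRAF4 at 26.7 ± 2.43 RPKM, and the libraries of these neighbors overlapped. TRAF2 at 19.8 ± 1.20 RPKM and MAP3K14 at 19.3 ± 0.467 RPKM overlapped as well. BIRC2 at 16.1 ± 0.143 RPKM stood apart from its neighbors. TRAF3 at 11.7 ± 0.416 RPKM, BIRC3 at 10.9 ± 0.841 RPKM and RELB at 9.57 ± 1.41 RPKM each overlapped with the next. CHUK at 7.55 ± 0.152 RPKM and TRAF6 at 2.61 ± 0.520 RPKM came last, each below every library of the gene before it. In IL17D-overexpressing cells the order was the same except that MAP3K14, at 22.6 ± 0.300 RPKM, lay above TRAF2, at 21.0 ± 0.484 RPKM, with no overlap of their libraries, and BIRC3, at 12.9 ± 0.282 RPKM, had a higher mean than TRAF3, at 12.1 ± 0.510 RPKM, with overlap. The 10 genes together took 762.9 to 796.3 CPM in control and 867.9 to 886.9 CPM in IL17D-overexpressing libraries.

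Ratios of 2 genes in the same library do not depend on how libraries are scaled, and 8 were computed after the values had been seen, with no test. The ratio of MAP3K14 to TRAF3, the kinase to the adaptor that binds it, was 1.63, 1.64 and 1.67 in control and 1.79, 1.92 and 1.91 in IL17D-overexpressing replicates 1 to 3. The ratio of MAP3K14 to CHUK was 2.62, 2.62 and 2.43 in control and 2.83, 2.84 and 2.99 in IL17D-overexpressing replicates. Neither ratio overlapped between the groups. The ratio of NFKB2 to NFKB1, which encodes the precursor of the canonical subunit p50, was 2.81, 2.74 and 2.91 in control and 3.21, 3.09 and 3.19 in IL17D-overexpressing replicates, again without overlap. The ratio of RELB to RELA overlapped, with 0.497 to 0.643 in control and 0.633 to 0.679 in IL17D-overexpressing libraries. The ratio of BIRC3 to BIRC2 also overlapped, with 0.636 to 0.738 and 0.688 to 0.760. The ratios of MAP3K14 to TRAF2 (0.933 to 1.01 in control and 1.05 to 1.12 in IL17D-overexpressing libraries) and of TRAF4 to TRAF2 (1.30 to 1.38 and 1.44 to 1.53) did not overlap. Nor did that of CHUK to IKBKB, with 1.17 to 1.24 and 1.25 to 1.37, although neither of these genes was called, so a ratio without overlap was not particular to the genes that rose.

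**Figure D4:**
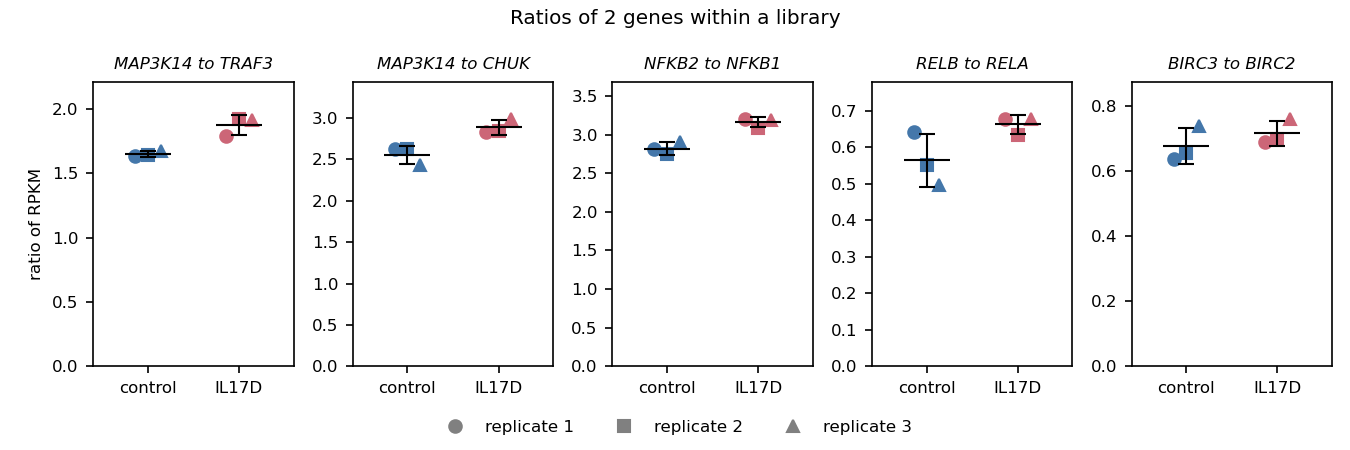
Ratios of RPKM (vertical axes, from 0) of 2 genes within each library, with bars for the mean and SD of 3 libraries. The ratios of MAP3K14 to TRAF3, MAP3K14 to CHUK and NFKB2 to NFKB1 were higher in every IL17D-overexpressing library than in every control library, while those of RELB to RELA and BIRC3 to BIRC2 overlapped.

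The genes around the pathway were described in 6 hand-written lists of 108 genes, of which 81 passed the filter on low counts. Of these 81, 0 were called higher and 1 lower by edgeR, 8 had an unadjusted p under 0.05, and the median log2 fold change was 0.0052. Over all tested genes 1.58% were called and 11.6% had an unadjusted p under 0.05. In 8 of the 81 genes all IL17D-overexpressing libraries lay above all control libraries, and in 6 all lay below. Over all tested genes these shares were 7.48% and 8.31%. In the canonical route, 14 of 14 genes were tested and 0 were called, with 0 at an unadjusted p under 0.05 and a median of 0.026. RELA, its main activating subunit, had 92.5 ± 1.56 CPM in control and 93.6 ± 1.65 CPM in IL17D-overexpressing cells (SD, n = 3 each), with a log2 fold change of 0.016 and a 95% interval of -0.079 to 0.11. NFKB1 had a log2 fold change of 0.053 with a 95% interval of -0.057 to 0.16, and IKBKB, the kinase IKK beta, one of -0.076 with a 95% interval of -0.18 to 0.031. For RELA, NFKB1 and IKBKB these intervals leave out the fold change of MAP3K14. In the same list, the 95% intervals of REL (-0.10 to 0.29), IKBKG (-0.11 to 0.37) and NFKBIE (-0.095 to 0.34) hold it. That of NFKB1 overlaps the interval of MAP3K14, 0.14 to 0.32, and those of RELA and IKBKB do not. Differences between genes were not tested. NFKBIA, which encodes the inhibitor I kappa B alpha and is itself a known NF-kB target, had 55.9 ± 2.29 CPM and 58.4 ± 3.06 CPM (SD, n = 3 each), with an edgeR adjusted p of 0.77. The most abundant gene of the list per length was IRAK1, a kinase of the Toll-like receptor pathway, with 82.0 RPKM in control and 84.0 RPKM in IL17D-overexpressing cells.

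Of 16 receptors listed by hand, 8 were tested, 0 were called and 2 had an unadjusted p under 0.05, with a median log2 fold change of -0.034. The list is broader than the noncanonical route. It holds FN14, CD40 and the lymphotoxin beta receptor, but also TNFRSF1A, which has no step in the account of that route given here. TNFRSF12A, which encodes FN14, the receptor of TWEAK, had 179.1, 199.2 and 182.3 CPM in control and 216.5, 192.7 and 210.4 CPM in IL17D-overexpressing replicates 1 to 3. The groups overlapped through control replicate 2 and IL17D replicate 2, and without either of these the edgeR adjusted p of 0.10 became 0.026 and 0.018. With any other single library left out TNFRSF12A was not called. TNFRSF1A, the main TNF receptor of epithelial cells, had 411 ± 6.91 CPM in control and 380.2 ± 5.08 CPM in IL17D-overexpressing cells (SD, n = 3 each), with no overlap, a log2 fold change of -0.11 and an edgeR adjusted p of 0.073, which was 0.041 without control replicate 3. With any other single library left out TNFRSF1A was not called. LTBR, the lymphotoxin beta receptor, had 28.0 RPKM in control and 27.0 RPKM in IL17D-overexpressing cells (log2 fold change -0.053, 95% interval -0.13 to 0.027). CD40 had 2.61 and 2.88 RPKM, against 101 and 112 RPKM for TNFRSF12A. Of 14 ligands 6 were tested, 0 were called and 1 had an unadjusted p under 0.05. The ligands of the receptors named above were low, with 0.672 CPM for LTB and 1.77 CPM for TNFSF12, which encodes TWEAK, in control cells, and CD40LG had no count in any library. The most abundant ligand per length was TNFSF9, with 9.50 RPKM in control and 9.29 RPKM in IL17D-overexpressing cells.

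Among other TRAF genes and genes listed by hand as partners of the family, 11 of 13 were tested and 0 were called. Of these, 0 had an unadjusted p under 0.05, and log2 fold changes ran from -0.17 to 0.078. TRAF7, with the highest mean level per length in control cells, had 22.4 RPKM there and 21.6 RPKM in IL17D-overexpressing cells. TNIP1, which had 21.3 and 21.7 RPKM, overlapped with it in control cells and had the higher mean in IL17D-overexpressing cells. TRAF3IP2, which encodes ACT1, had 9.05 to 11.3 CPM in control and 8.39 to 10.4 CPM in IL17D-overexpressing libraries (edgeR adjusted p = 0.69). Of 32 genes listed by hand around NIK and p100, 31 were tested and 0 were called, with 1 at an unadjusted p under 0.05 and a median of 0.015. The list is broad. It holds the deubiquitinase OTUD7B, the kinase TBK1 and the ubiquitin ligase subunits BTRC and FBXW7, but also MAP3K7, TAB1 and UBE2N. HSP90AB1, a chaperone that stabilizes NIK and the most abundant of the list, had 680.7 RPKM in control and 688.0 RPKM in IL17D-overexpressing cells.

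**Figure D5:**
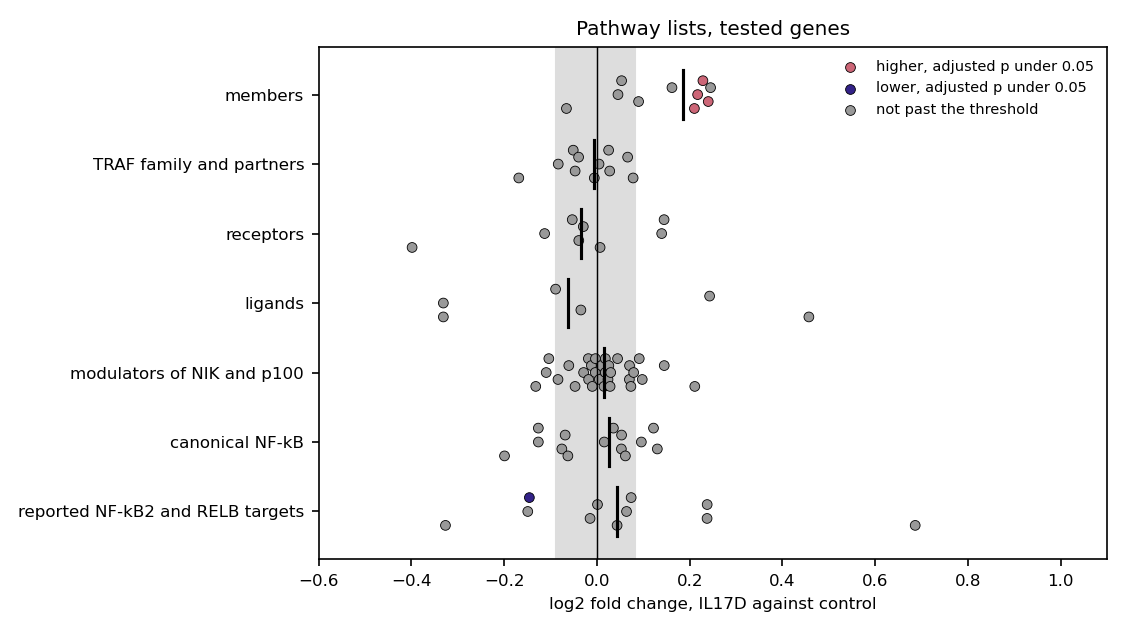
Log2 fold change (horizontal axis) of every tested gene of the 10 members and of 6 other lists, 1 point a gene. Black bars give the median of a list, and the gray band holds the middle 50% of all tested genes. The 10 members have a median of 0.19 and 4 genes called higher (red). Among the 81 tested genes of the 6 other lists 1 was called, TNFAIP2, which was lower (dark blue). The members were chosen with these fold changes in view, and the lists with earlier results of these data known. The difference between members and lists is therefore a description and not evidence.

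Of 19 genes reported as targets of p52 and RELB or of NF-kB in general, 11 were tested and 1 was called. In this list 4 genes had an unadjusted p under 0.05, against 11.6% of all tested genes, and 5 did not overlap between the groups (4 higher and 1 lower), against 15.8% of all tested genes. The 4 higher were CCL2, CCL20, PLAU and CCND1, and none of these was called. TNFAIP2, a gene that TNF induces, had 493.2, 516.4 and 501.9 CPM in control and 452.5, 452.1 and 461.7 CPM in IL17D-overexpressing replicates 1 to 3. It was lower in every IL17D-overexpressing library, with a log2 fold change of -0.15 ± 0.032 (SE) and an edgeR adjusted p of 0.0073, and it lost the call when control replicate 2 (edgeR adjusted p = 0.076) or IL17D replicate 1 (0.068) was left out. The lymphoid chemokines CXCL12, CXCL13, CCL19 and CCL21, the classical targets of p52 and RELB, were too low to be tested, and CXCL13 had no count in any library. Of the chemokines that epithelial cells make, CCL2, which attracts monocytes, had 31.8, 28.8 and 29.4 CPM in control and 36.2, 33.8 and 36.2 CPM in IL17D-overexpressing replicates 1 to 3. It did not overlap between the groups (log2 fold change 0.24, edgeR adjusted p = 0.11). CCL20 was low, with 1.35 to 2.42 CPM in control and 2.67 to 3.29 CPM in IL17D-overexpressing libraries (log2 fold change 0.69, edgeR adjusted p = 0.27). CXCL8 had 24.2 ± 2.04 CPM and 28.7 ± 2.92 CPM with overlap (SD, n = 3 each), and an edgeR adjusted p of 0.23. CXCL5, the most abundant target per length, had 151.8 RPKM in control and 150.2 RPKM in IL17D-overexpressing cells.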

How the data were processed

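RNA-seq counts from 3 control and 3 IL17D-overexpressing A549 libraries were used. Raw counts, whole numbers of reads for each gene in each library, were deposited by the authors in 1 table. The submitters' processing notes name Bowtie2 and hg38. The counting tool and strand setting are not given in the sources used here, and all 58735 genes have the coordinates of GENCODE 29. Groups came from the sample titles. In R 4.3.3, genes were kept with edgeR 4.0.16 (filterByExpr), scaled by TMM and compared with glmQLFit and glmQLFTest, two-sided, with Benjamini-Hochberg adjustment over 15754 genes. Standard errors were taken as the log2 fold change divided by the root of F, and 95% intervals from the t distribution. CPM are TMM-scaled, and RPKM divide them by the authors' gene length. Libraries of a group differed by more than counting error (chi-square per degree of freedom 2.18 to 3.36), so none was counted as a repeat.

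The 10 genes, the lists and the named genes were chosen with earlier results of these data known. Named were the 10 genes, IL17D, each called gene of a list and its most abundant gene per length, the 5 genes closest to MAP3K14 and overlapping genes. Beyond that rule, further list genes, such as RELA and CCL2, were named after their values were seen. The edgeR, DESeq2 and limma voom fits were tested on simulated data, and the sequence searches, ratios and likeness to MAP3K14 were not. Alternatives were other scalings, DESeq2 1.42.0, limma 3.58.1 (voom), other filters, the replicate number as a block, summed related genes, and each library left out.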

Additional observations from a re-analysis of the deposited data

How the results depend on the processing

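The count of 4 called members was the same under 8 alternatives, namely 2 other scalings, DESeq2 run on the tested genes or on every gene that had a count, limma voom, 2 other filters and the replicate number as a block. With 1 library left out it was 2 to 4. The lowest count, 2, was found without IL17D replicate 3, when MAP3K14 and NFKB2 were called. MAP3K14 and NFKB2 passed the threshold in all 15 and 14 of their alternatives, with adjusted p up to 0.022. The count of 1 called gene of the other lists was 2 with DESeq2 run on the tested genes, 2 with DESeq2 run on every gene that had a count, 2 with edgeR run on the latter, and 0 to 2 with 1 library left out. TNFAIP2 was joined by TNFRSF1A in DESeq2 and by TNFRSF12A in edgeR without the filter. BIRC2 on its own passed in no alternative. The feature that sums its counts with those of BIRC3 passed, but BIRC3 was called by itself. The log2 fold change of TRAF6 ranged from -0.19 (without control replicate 2) to 0.091 (without control replicate 3) with 1 library left out, and was also positive without IL17D replicate 2 (0.025), and no other member changed sign under any alternative. The causes were not tested. Same-numbered libraries did not deviate together (correlations 0.0100, -0.0119 and -0.0151), and no library correlated best with its own number. With the replicate block, 4 members and 1 other pathway gene were called, and over all genes 115 higher and 157 lower instead of 106 and 143. Scaling shifted the median of all genes by at most 0.0030 in size. TRAF6, with 148 to 246 counts, had the largest SE of the 10 genes, and its spread between libraries exceeded counting error.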

Other observations

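The spread of the 10 genes between libraries of a group was not even. In control cells the coefficient of variation was 0.300% for NFKB2 and 0.886% for BIRC2, below the 2.24% and 2.96% that counting alone gives, and 14.7% for RELB, 9.07% for TRAF4 and 7.72% for BIRC3, where counting alone gives 4.69%, 2.28% and 2.80%. In IL17D-overexpressing cells the same genes had 1.47%, 3.49%, 5.62%, 1.70% and 2.19%. The widest spread was that of TRAF6, with 20.0% in control and 13.3% in IL17D-overexpressing cells, where counting alone gives 7.08% and 7.24%. Control replicate 3 had the lowest value of its group for RELB, TRAF2, TRAF3, TRAF4 and MAP3K14, and the highest for BIRC3, TRAF6 and CHUK.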
